A study of Homo sapiens with 6 samples.

Results

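The genes described here are 10 components and transcriptional targets of the YAP-TEAD pathway: YAP1, WWTR1, TEAD1, CCN1, CCN2, ANKRD1, THBS1, AMOTL2, LATS2 and AJUBA. They were taken by symbol from a count matrix of 60605 genes, in which CCN1 and CCN2 carry their GENCODE 29 names CYR61 and CTGF, and all 10 were found. The libraries are RNA-seq of UMUC3, an established human bladder cancer cell line. One group was infected with TIM-1-PLVX-IRES-zsgreen, a vector that carries TIM-1 together with a green fluorescent marker (3 libraries, here TIM-1), and the other with PLVX-IRES-Zsgreen, the vector without TIM-1 (3 libraries, here empty vector). TIM-1 is a cell surface receptor encoded by HAVCR1. The labels number the libraries 1 to 3 in each group but do not say what a number marks, whether replicates were separate cultures or infections, how dense the cells were, when they were lysed, or whether infected cells were sorted. The p-values therefore rest on differences among these 6 libraries alone, part of which may be technical. Each group is 1 infected cell line, and fewer cells expressing a gene cannot be told apart from less RNA per cell.

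YAP (encoded by YAP1) and TAZ (encoded by WWTR1) are transcriptional coactivators that have no DNA-binding domain of their own and act mainly through the TEAD factors. The Hippo kinases LATS1 and LATS2 phosphorylate YAP and TAZ, which keeps them in the cytoplasm, and angiomotin-family proteins such as AMOTL2 hold them there as well, while LIM proteins such as AJUBA restrain the LATS kinases. In cultured epithelial cells, crowding and a soft or small adhesive surface lower YAP activity, and the secreted matrix proteins CCN1 and CCN2 and the nuclear ankyrin-repeat protein ANKRD1 are the targets most often read as its output. CCN1 and CCN2 are also immediate early genes that serum, SRF and AP-1 factors can induce.

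Library totals ran from 14312387 to 18605914 counts. HAVCR1, the gene of TIM-1, measured 572 ± 73.0 CPM (counts per 1000000 counts of a library; SD, n = 3) in the TIM-1 libraries and 0.0835 ± 0.145 in the empty-vector libraries, so the labels and the transgene matched. All 4 mesenchymal markers were above 1 CPM, with VIM, the mesenchymal intermediate filament vimentin, at a mean of 1728 CPM, whereas 8 of 11 epithelial and urothelial markers were below 1 CPM and 3 of those (KRT20, EPCAM and UPK3A) had no count in any library. The summed level of the 11 epithelial and urothelial markers was still 324 to 435 CPM with TIM-1 and 359 to 560 CPM without. It was carried by the markers above 1 CPM. Of 5 fibroblast markers, 3 were below 1 CPM, and their summed level was 9.28 to 15.9 CPM with TIM-1 and 5.67 to 9.33 CPM without. All 5 leukocyte and all 4 endothelial markers were below 1 CPM, with summed levels of 0 to 0.27 CPM in both groups. A filter on low counts kept 14479 genes for testing, among them 9 of the 10 genes. THBS1 did not pass.

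Per kilobase of annotated exon, CCN1 was the highest of the 10 genes, at a mean of 306 CPM per kb over the 6 libraries (range 190 to 369). CCN2 followed at 96.0 (52.4 to 121), and the membrane scaffold gene AMOTL2 at 37.3 (35.7 to 38.8). YAP1 had 22.8 (21.9 to 23.6), WWTR1 17.7 (15.9 to 20.4), TEAD1 16.2 (14.5 to 17.2), AJUBA 14.5 (12.7 to 17.1) and LATS2 9.86 CPM per kb (7.54 to 11.5). The ranges of WWTR1, TEAD1 and AJUBA overlapped, so their order is not resolved beyond the spread between libraries. ANKRD1, at 0.602 CPM per kb (0.209 to 0.975), and THBS1, at 0.0247 (0.00589 to 0.0676), were barely transcribed. The coactivators and TEAD1 were thus within a narrow band while their 4 listed secreted or nuclear targets covered the whole range.

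**Figure D1:**
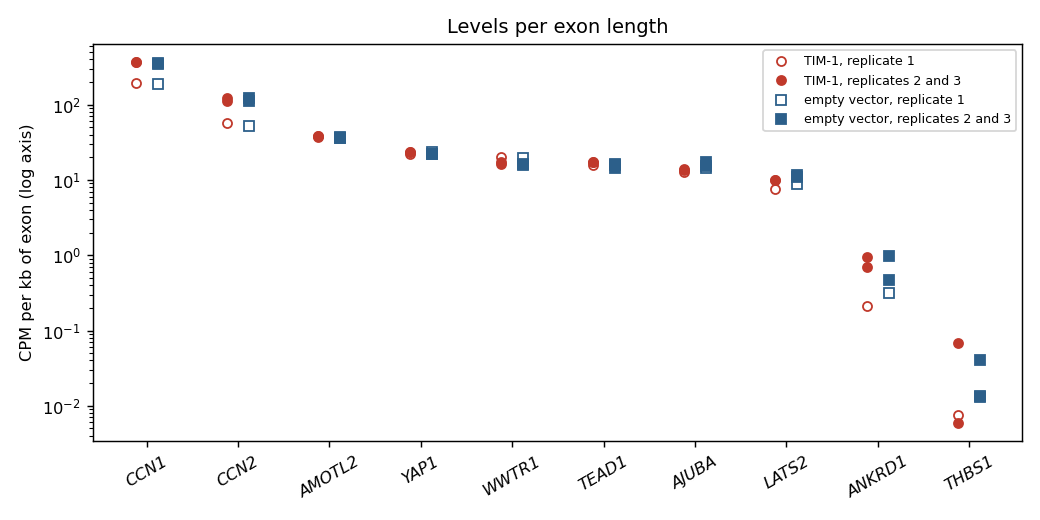
Level of each gene in CPM per kilobase of exon on a log axis, ordered by mean, with 1 point per library (circles for TIM-1, squares for empty vector, open for replicate 1, filled for replicates 2 and 3). CCN1 lies highest at a mean of 306 CPM per kb and THBS1 lowest at 0.0247, and the points of WWTR1, TEAD1 and AJUBA overlap.

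Promoter stretches are shown for CCN2 and ANKRD1, which were lower in replicate 1 and have more than 1 TEAD match each, and for 3 members with 1 match whose levels did not pass that test. They were picked by match number and replicate 1 result, and a relation between these was not tested. Within the 250 bases before a RefSeq transcript start (GRCh38.p14), the TEAD recognition letters GGAATG, on either strand, occurred in 11.9% of 35116 promoters, at least 2 times in 0.940% and at least 3 times in 0.0826%. RefSeq promoter entries were matched for 8 of the 10 genes (11 entries), without CCN1 and TEAD1. CCN2 had 3 matches, beginning 169, 104 and 95 bases before its start, and ANKRD1 had 2, beginning 220 and 128 bases before its start. YAP1, THBS1, AMOTL2 and AJUBA had 1 match each, in AMOTL2 and AJUBA at the second of the listed starts. LATS2, which was also lower in replicate 1, and WWTR1, which was higher there, had none. The AP-1 letters TGANTCA, found in 6.57% of all promoters, occurred in 1 of the 8 genes (ANKRD1, 195 bases before the start), and a CArG box, the site of SRF, which 1.16% of promoters hold, in none. The AP-1 match of ANKRD1 does not overlap either of its GGAATG matches. In the stretches below, written 5′ to 3′ on the gene's strand, capitals mark GGAATG or its reverse complement. For CCN2 (chr6:131951374-131951622, minus strand) and ANKRD1 (chr10:90921277-90921337, minus strand) they run up to the first exon annotated in GENCODE 29, which for ANKRD1 begins 189 bases before the RefSeq start, so that the second match of ANKRD1 lies in it. For AMOTL2 (chr3:134374499-134374528, minus strand), YAP1 (chr11:102110273-102110302, plus strand) and AJUBA (chr14:22976884-22976913, minus strand), 30 bases around the match are given. GENCODE 29 exons of the same gene cover 147 of the 250 window bases in AMOTL2 and all 250 in AJUBA, the printed matches included, and none of the window in YAP1 or THBS1.
CCN2: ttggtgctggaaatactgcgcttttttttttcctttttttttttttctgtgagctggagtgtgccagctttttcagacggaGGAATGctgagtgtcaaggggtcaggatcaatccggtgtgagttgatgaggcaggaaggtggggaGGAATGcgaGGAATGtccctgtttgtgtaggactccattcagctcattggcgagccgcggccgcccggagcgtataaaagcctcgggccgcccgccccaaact
ANKRD1: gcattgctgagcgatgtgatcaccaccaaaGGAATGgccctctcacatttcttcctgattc
AMOTL2: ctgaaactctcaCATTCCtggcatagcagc
YAP1: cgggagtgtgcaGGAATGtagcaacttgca
AJUBA: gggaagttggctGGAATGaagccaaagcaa
A match describes letters only, and binding was not measured.

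The first comparison asked whether cells carrying TIM-1 differed from cells carrying the empty vector. None of the 9 tested genes passed an adjusted p of 0.05, either higher or lower, in the edgeR quasi-likelihood test. Over all 14479 genes, 0.0138% were called higher and 0% lower, and 5.49% had an unadjusted p under 0.05, as did 1 of the 9 (AJUBA). With the replicate number as a block, which called 3.22% of all genes higher and 1.79% lower, the count for the 9 genes was again 0, and DESeq2 called none without the block (0.2% of all genes called higher and 0.00691% lower) or with it (1.04% and 0.525%), giving ANKRD1 no adjusted p without it. The median log2 fold change of the 9 genes was 0.05, beside 0.00 for all genes tested.

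The coactivator and TEAD genes held nearly the same level in both groups. YAP1 (chr11:102110461-102233423, plus strand) had 140, 148 and 149 CPM in TIM-1 replicates 1, 2 and 3, and 147, 138 and 141 CPM in the empty-vector replicates. Its groups overlapped, with a log2 fold change of 0.03 (95% interval -0.14 to 0.21, edgeR adjusted p = 0.970). WWTR1 (chr3:149517235-149736714, minus strand) had 172, 144 and 139 CPM with TIM-1 and 167, 137 and 134 CPM without. Replicate 1 was the highest library of each group, and the log2 fold change of WWTR1 was 0.05 (-0.21 to 0.31, edgeR adjusted p = 0.970). TEAD1 (chr11:12674591-12944483, plus strand) measured 164, 176 and 177 CPM with TIM-1 and 165, 169 and 149 CPM without, a log2 fold change of 0.10 (-0.09 to 0.29, edgeR adjusted p = 0.921). With the replicate block the intervals were -0.10 to 0.16 for YAP1, -0.08 to 0.18 for WWTR1 and -0.03 to 0.23 for TEAD1.

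Among the targets, CCN1 (chr1:85580761-85583962, plus strand) was at 483, 902 and 905 CPM in TIM-1 replicates 1 to 3 and at 467, 860 and 891 CPM in the empty-vector replicates. The replicate 1 libraries lay far below the other 4, whatever the vector. The log2 fold change of CCN1 for TIM-1 was 0.05, with an interval of -0.83 to 0.92 without the block and -0.07 to 0.16 with it (edgeR adjusted p = 0.993 and 0.734). CCN2 (chr6:131948176-131951373, minus strand) showed the same layout, at 134, 264 and 283 CPM with TIM-1 and 123, 260 and 283 CPM without. Its log2 fold change was 0.03 (-1.05 to 1.12) without the block and 0.05 (-0.07 to 0.17) with it (edgeR adjusted p = 0.994 and 0.731). For both CCN genes, then, differences between the vectors of more than 0.17 on the log2 scale in either direction lay outside the blocked interval, while the unblocked interval was several times wider.

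ANKRD1 (chr10:90912096-90921276, minus strand) had 6, 22 and 35 counts with TIM-1 (0.414, 1.36 and 1.89 CPM) and 10, 15 and 32 counts without (0.626, 0.928 and 1.93 CPM). At this depth its log2 fold change of 0.10 had an interval from -1.15 to 1.34 (edgeR adjusted p = 0.992), which holds both a rise and a fall. With the block the log2 fold change of ANKRD1 was 0.06 (-0.74 to 0.86, edgeR adjusted p = 0.963). That narrower interval still holds both a rise and a fall, and the smallest change that could be detected was not computed. THBS1 (chr15:39581079-39599466, plus strand), which encodes the matrix protein thrombospondin 1, had 1, 10 and 1 counts with TIM-1 and 2, 6 and 2 without, and was not tested. Replicate 2 of each group was its highest library.

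Of the genes whose proteins restrain YAP or the LATS kinases, AMOTL2 (chr3:134355874-134375479, minus strand) was level across the libraries. It had 222, 230 and 232 CPM with TIM-1 and 218, 225 and 214 CPM without, a log2 fold change of 0.06 (-0.11 to 0.22, edgeR adjusted p = 0.940). With the block the interval of AMOTL2 was -0.06 to 0.18. LATS2 (chr13:20973032-21061547, minus strand) had 42.1, 55.7 and 56.3 CPM with TIM-1 and 49.7, 61.8 and 64.4 CPM without. Each TIM-1 library was below the empty-vector library of the same number, but the groups overlapped, and the log2 fold change was -0.19 (-0.50 to 0.12, edgeR adjusted p = 0.917; with the block -0.35 to -0.04, adjusted p = 0.141). AJUBA (chr14:22971174-22982642, minus strand) had 76.0, 83.1 and 82.1 CPM with TIM-1 and 87.1, 91.3 and 102 CPM without. It was the only one of the 9 genes whose groups did not overlap, lower with TIM-1, as were 5.06% of all genes tested (6.6% did not overlap on the higher side). The log2 fold change of AJUBA was -0.22 (-0.43 to -0.01, edgeR adjusted p = 0.886), and with the block -0.22 (-0.36 to -0.08, edgeR adjusted p = 0.0534), which missed the threshold. Lower values with TIM-1 in all 3 pairs, which LATS2 and AJUBA shared, were found in 19.1% of all genes tested, and higher values in all 3 pairs, as in WWTR1, CCN1 and AMOTL2, in 20.1%.

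**Figure D2:**
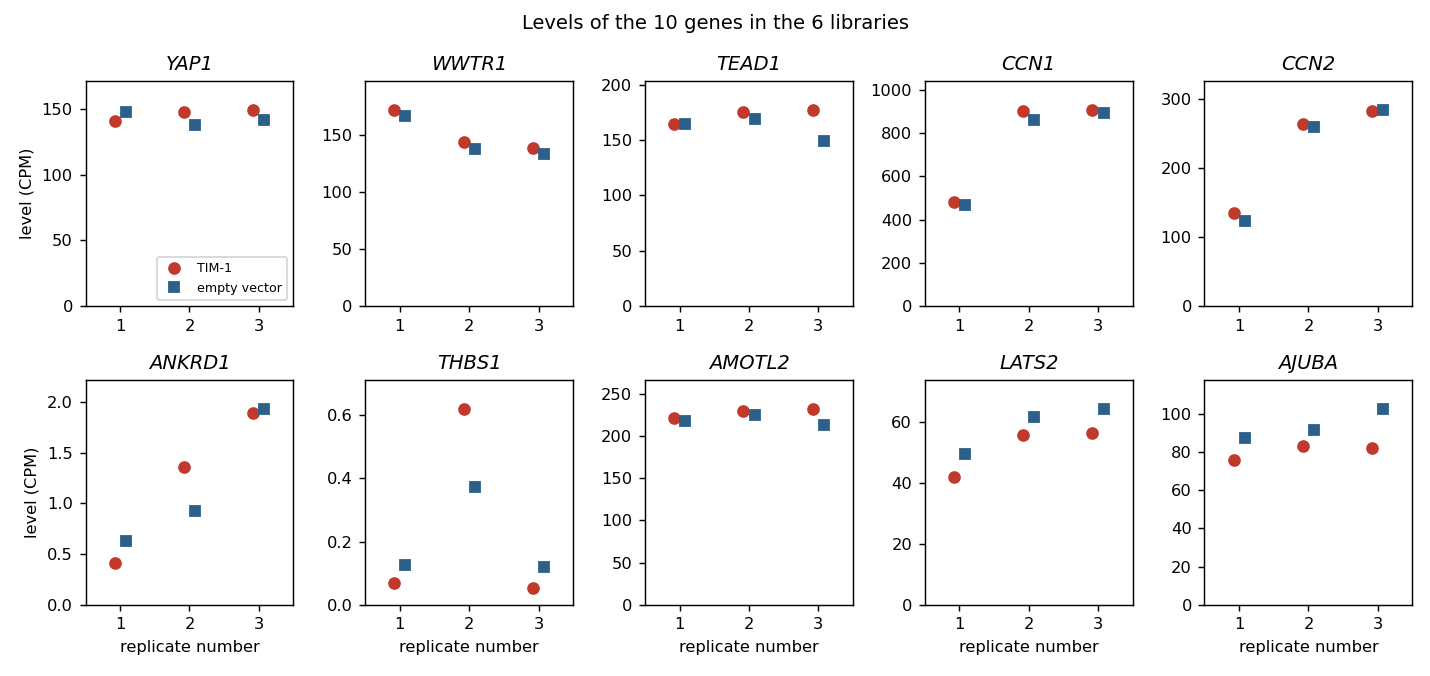
Level of each gene (CPM, linear axis from 0) against replicate number, with circles for TIM-1 and squares for empty vector, 1 panel per gene. In CCN1, CCN2 and ANKRD1 both replicate 1 libraries lie below the other 4, WWTR1 shows the reverse, and circles and squares lie close together in most panels.

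All of the 10 genes but CCN1 and ANKRD1 overlap another annotated gene, and no source used here states whether the counting used strand. CCN2, for example, shares its locus with the antisense gene AL133346.1, WWTR1 with WWTR1-AS1 and LATS2 with LATS2-AS1. Other partners lie on the same strand, among them the protein-coding gene AL132780.3 at AJUBA, and MIR6827 and RPL39P5 at AMOTL2. Counting by strand would not separate those. Overlap was taken over whole gene spans, introns included, and overlap of exons was not examined. Where exons do overlap, reads of such partners may not be told apart from those of the named gene.

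The second comparison set the 2 libraries numbered 1 against the 4 numbered 2 and 3, with the vector as a term in the fit, because the set was chosen as a possible readout of culture density. CCN1, CCN2, ANKRD1 and LATS2 were lower in replicate 1 and WWTR1 was higher, while YAP1, TEAD1, AMOTL2 and AJUBA did not pass the test. That is 4 of 9 genes called lower, where 12% of all genes tested were, and 1 of 9 called higher, where 11.6% were. The fit treats the libraries as separate, so its p-values and intervals measure spread between libraries, not between replicate numbers. Number 1 is a single number set against 2 and 3, and its 2 libraries deviated together from their group means (correlation 0.53). Density is not recorded in the labels, and its part in these differences was not tested.

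CCN2 averaged 128 CPM in replicate 1 and 273 ± 12.3 CPM (SD, n = 4) in replicates 2 and 3, which is 2.12-fold lower. Its log2 difference was -1.09 (SE 0.07, 95% interval -1.23 to -0.94, edgeR adjusted p = 3.70e-11), and it was the 187th lowest of the 14479 genes. CCN1 averaged 475 CPM in replicate 1 and 889 ± 20.3 CPM in the others, or 1.87-fold lower. The log2 difference of CCN1 was -0.90 (SE 0.06, -1.03 to -0.78, edgeR adjusted p = 6.84e-11). Within the TIM-1 libraries alone the log2 differences were -0.90 for CCN1 and -1.02 for CCN2, and within the empty-vector libraries alone -0.91 and -1.15. Each of these sets 1 library against 2 and is given as a value with no test. The replicate 1 effect did not differ detectably between the vectors, with a difference on the log2 scale of 0.00 (-0.26 to 0.26) for CCN1 and 0.12 (-0.17 to 0.41) for CCN2. Over all genes, edgeR called 0% for that difference, with 5.38% at an unadjusted p under 0.05 and none of the 9 genes among them.

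ANKRD1 averaged 0.520 CPM in replicate 1 and 1.53 ± 0.476 CPM in the others, or 2.94-fold lower on 6 and 10 counts. Both replicate 1 libraries were below the other 4. The log2 difference of -1.53 (SE 0.47, -2.51 to -0.56, edgeR adjusted p = 0.0202) did not pass without TIM-1 replicate 1 (adjusted p = 0.250), TIM-1 replicate 3 (0.0693), empty-vector replicate 1 (0.0928) or empty-vector replicate 3 (0.0576). THBS1, the remaining target, had 1 and 2 counts in replicate 1 and 1 to 10 in the others.

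LATS2, which is both a kinase of the pathway and a reported YAP target, averaged 45.9 CPM in replicate 1 and 59.6 ± 4.23 CPM in the others. Its fall was 1.30-fold, smaller than that of the CCN genes, with a log2 difference of -0.38 (SE 0.08, -0.54 to -0.21, edgeR adjusted p = 0.00129). Without TIM-1 replicate 1 the log2 difference of LATS2 was -0.35 and the edgeR adjusted p 0.0510. WWTR1 moved the other way, from 138 ± 4.19 CPM in replicates 2 and 3 to 169 CPM in replicate 1, a log2 difference of 0.29 (SE 0.07, 0.16 to 0.43, edgeR adjusted p = 0.00214). Without empty-vector replicate 1 the edgeR adjusted p of WWTR1 was 0.0622. In the empty-vector libraries alone, again 1 library against 2, the log2 differences were -1.18 for ANKRD1, -0.35 for LATS2 and 0.30 for WWTR1. In the TIM-1 libraries alone, also 1 library against 2, they were -1.96, -0.41 and 0.29.

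The other 4 genes had small differences with intervals around 0. YAP1 differed by 0.00 (-0.14 to 0.14), TEAD1 by -0.02 (-0.17 to 0.12), AMOTL2 by -0.03 (-0.17 to 0.10) and AJUBA by -0.14 (-0.29 to 0.02) on the log2 scale, with edgeR adjusted p of 0.989, 0.844, 0.755 and 0.196. For each of these 4 genes a change as large as that of CCN1 or CCN2 lay outside the interval. CCN1, CCN2, ANKRD1 and LATS2 had no overlap between replicate 1 and the others on the lower side, as did 20.4% of all genes tested, and WWTR1 on the higher side, as did 19.2%.

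**Figure D3:**
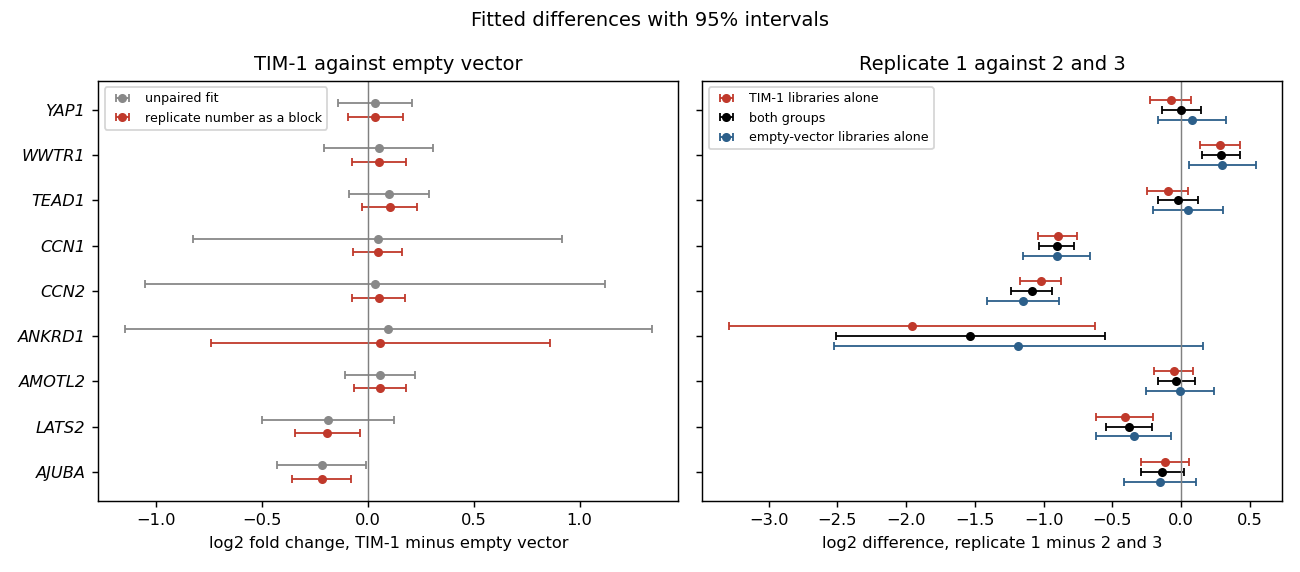
Fitted log2 differences of the 9 tested genes with 95% intervals, on the left TIM-1 minus empty vector (grey without and red with the replicate block), on the right replicate 1 minus replicates 2 and 3 (black both groups, red TIM-1 alone, blue empty vector alone, where 1 library is set against 2). The red and blue intervals on the right rest on the spread between 2 libraries, pooled over genes, and are not used as a test. The block narrows the CCN1 interval from -0.83 to 0.92 down to -0.07 to 0.16, and on the right CCN1 and CCN2 lie near -1 in both groups.

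Setting number 1 against the others was chosen with earlier results of these libraries known, so a test that singles out no number was run beside it. That test uses the same 6 libraries and the same genes, so it does not undo the choice. Its p-values, too, measure spread between libraries, not between replicate numbers. With any difference among the 3 numbers as the question, edgeR called 22% of all genes and 5 of the 9: CCN1 (adjusted p = 8.36e-16), CCN2 (1.16e-17), LATS2 (0.00179), WWTR1 (0.00271) and ANKRD1 (0.0180). Between replicates 2 and 3, edgeR called 0.0207% of genes in each direction and none of the 9, with 6.48% of all genes and none of the 9 at an unadjusted p under 0.05. The log2 difference of replicate 2 from 3 was -0.03 (-0.17 to 0.11) for CCN1, -0.11 (-0.26 to 0.04) for CCN2 and -0.74 (-1.63 to 0.16) for ANKRD1.

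A list of further reported YAP/TAZ targets, 16 of them tested, was split in direction. In replicate 1, 4 were lower (12% of all genes were), 5 were higher (11.6%) and 7 did not pass, with a median log2 difference of 0.02, beside -0.01 for all genes. On leaving out 1 library the counts ran from 3 to 5 lower and from 2 to 5 higher, with 2 higher without TIM-1 replicate 1, 2 or 3 or empty-vector replicate 1. GADD45A, a growth arrest and DNA damage gene, fell furthest (-1.29, edgeR adjusted p = 3.48e-12), from 216 to 264 CPM in replicates 2 and 3 to 89.7 and 105 CPM in replicate 1. FJX1, related to a fly planar polarity gene, fell by 0.66 (edgeR adjusted p = 3.96e-07), whereas IGFBP3, an insulin-like growth factor binding protein, rose by 0.61 (edgeR adjusted p = 1.49e-06). The others that passed, named here after their values were seen, were the kinase genes NUAK2 (7.73 and 8.83 CPM in replicate 1, 13.4 to 20.5 in the others) and AXL (log2 difference -0.29) on the lower side, and NT5E (0.39), ARHGEF17 (0.32), PTPN14 (0.20) and ASAP1 (0.19) on the higher side. Of the 9, GADD45A, FJX1, NUAK2, IGFBP3 and NT5E passed whichever of the 6 libraries was left out, AXL in 4 of 6 cases, ARHGEF17 in 2, and PTPN14 and ASAP1 in 1 each. AXL did not pass without TIM-1 replicate 1 (edgeR adjusted p = 0.103) or empty-vector replicate 1 (0.0941).

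For TIM-1 against empty vector none of the 16 passed without the block. MYOF, a membrane repair protein, had the highest level of the 16, with 583 to 636 CPM and a log2 fold change of 0.01 (-0.16 to 0.17, edgeR adjusted p = 0.994), and AXL, a receptor tyrosine kinase, had 0.03 (-0.24 to 0.30, 0.986). With the block 3 of the 16 were higher, beside 3.22% of all genes, and 1 was lower, beside 1.79%. IGFBP3 rose by 0.90 (edgeR adjusted p = 5.30e-13), with 312, 233 and 229 CPM with TIM-1 against 197, 118 and 109 CPM without. CCDC80, a matrix protein (0.62, edgeR adjusted p = 1.39e-05), and PTPN14, a phosphatase that binds YAP (0.24, 0.0268), were the other higher genes, and NUAK2 was lower (-0.47, 0.0190). Under the block IGFBP3 and CCDC80 passed whichever pair was left out, whereas neither PTPN14 (edgeR adjusted p = 0.382 and 0.148) nor NUAK2 (0.273 and 0.220) passed without pair 2 or pair 3.

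Upstream of YAP, the 14 Hippo kinase and scaffold genes included 2 that were higher in replicate 1, 1 that was lower and 11 that did not pass (median 0.08), beside 11.6% and 12% of all genes. TAOK1, a kinase that activates the Hippo kinases, rose by 0.62 (edgeR adjusted p = 4.65e-07) and TAOK2 by 0.27 (0.0124), while NF2, the scaffold merlin, fell by 0.52 (2.76e-04). TAOK1 passed whichever library was left out. TAOK2 did not pass without TIM-1 replicate 1 (edgeR adjusted p = 0.0702) or empty-vector replicate 1 (0.191), nor NF2 without empty-vector replicate 1 (-0.40, 0.0670), and the counts of the list ran from 1 to 4 higher and from 0 to 1 lower. With TIM-1 none of the 14 passed without the block, and MAP4K4 and FRMD6, an upstream kinase and a scaffold and the most abundant by mean count, had log2 fold changes of 0.05 and -0.10 (edgeR adjusted p = 0.952 and 0.921). With the block TAOK3 alone passed (0.36, edgeR adjusted p = 0.0408), and it passed in none of the 3 fits that left out a pair (0.0580 to 0.450).

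Of the other TEAD factors and the VGLL cofactors, which bind TEAD in place of YAP, 5 of 7 were tested. TEAD4 passed in replicate 1 at a log2 difference of -0.23 (edgeR adjusted p = 0.0337), and the other 4 did not pass. Its call was lost without TIM-1 replicate 1 (0.229), 2 (0.0723) or 3 (0.101) or empty-vector replicate 1 (0.182), and 12% of all genes were lower. TEAD4 and VGLL4 had log2 fold changes of -0.19 and 0.08 for TIM-1 (edgeR adjusted p = 0.893 and 0.952). Among 5 tested relatives of AMOTL2 and AJUBA, the LIM protein gene TRIP6 fell by 0.46 in replicate 1 (edgeR adjusted p = 3.56e-05) and was lower with TIM-1 only under the block (-0.24, 0.0185; without it -0.24, 0.914). The replicate 1 call of TRIP6 held whichever library was left out, and the blocked call was lost without pair 2 (edgeR adjusted p = 0.335) or pair 3 (0.0946). ZYX, which encodes the focal adhesion protein zyxin, had a log2 fold change of -0.23 for TIM-1 (edgeR adjusted p = 0.914), and passed only with the block and without pair 1 (-0.42).

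CCN5 is a CCN protein that lacks the carboxy-terminal domain of CCN1 and CCN2. It was the 1 of 3 tested paralogs that passed in replicate 1, where 11.6% of all genes were called higher. It moved opposite to CCN1 and CCN2. Its level was 9.93, 4.02 and 2.91 CPM with TIM-1 and 3.32, 0.680 and 0.724 CPM without. Empty-vector replicates 2 and 3 were thus below 1 CPM, and the size of the differences below rests partly on low counts. CCN5 was 1.76 higher in replicate 1 on the log2 scale (edgeR adjusted p = 8.54e-06). For TIM-1 its log2 fold change was 1.82 without the block (0.16 to 3.49, edgeR adjusted p = 0.880) and 1.92 with it (1.40 to 2.44, edgeR adjusted p = 6.84e-07). The blocked fit called 3.22% of all genes higher. THBS3 had a log2 fold change of 0.03 for TIM-1 (edgeR adjusted p = 0.994).

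Beside the pathway, 4 lists covered genes known to move with the CCN genes or with the state of a culture. These lists were chosen with earlier results of these data known, so their counts describe the libraries and give no independent support. All but 1 of the 8 AP-1 genes tested were lower in replicate 1, beside 12% of all genes, with a median of -1.32. FOSB went from 94.4 to 159 CPM in replicates 2 and 3 to 12.6 and 18.0 CPM in replicate 1 (-2.99, edgeR adjusted p = 6.95e-17), FOS fell by 1.82 (3.48e-15) and JUNB by 1.17 (5.99e-11). FOSL2 was the AP-1 gene that did not pass (-0.01), and on leaving out 1 library 5 to 7 were lower, with FOSL1 lost in 4 of 6 cases and JUN without TIM-1 replicate 1. The proliferation genes went the other way, with 6 of 8 higher (4 to 6 on leaving out 1 library), beside 11.6% of all genes, none lower and a median of 0.43, among them CCNA2 (0.61, edgeR adjusted p = 3.12e-07), MKI67 (0.60, 3.12e-07) and TOP2A (0.53, 1.09e-06). Of 14 SRF and actin cytoskeleton genes 2 were lower (FHL2 -0.40 and TPM1 -0.30, edgeR adjusted p = 1.02e-04 and 0.00103), 1 was higher (MRTFB, 0.46, 0.00289) and the median was -0.07, beside 12% and 11.6% of all genes. Neither TPM1 (edgeR adjusted p = 0.0926) nor MRTFB (0.0813) passed without TIM-1 replicate 1, and the counts ran from 2 to 3 lower and from 0 to 2 higher. Of 10 junction and polarity genes, FAT4 and DLG5 were higher (both 0.43, edgeR adjusted p = 1.41e-04 and 2.41e-04), beside 11.6% of all genes. None of the 10 was lower, 8 did not pass and the median was 0.11. On leaving out 1 library, 2 to 3 of these genes were higher and 0 to 1 lower. The fall of CCN1, CCN2 and ANKRD1 in replicate 1 thus came with lower AP-1 transcripts and higher proliferation transcripts, and the part of either in it was not tested.

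**Figure D4:**
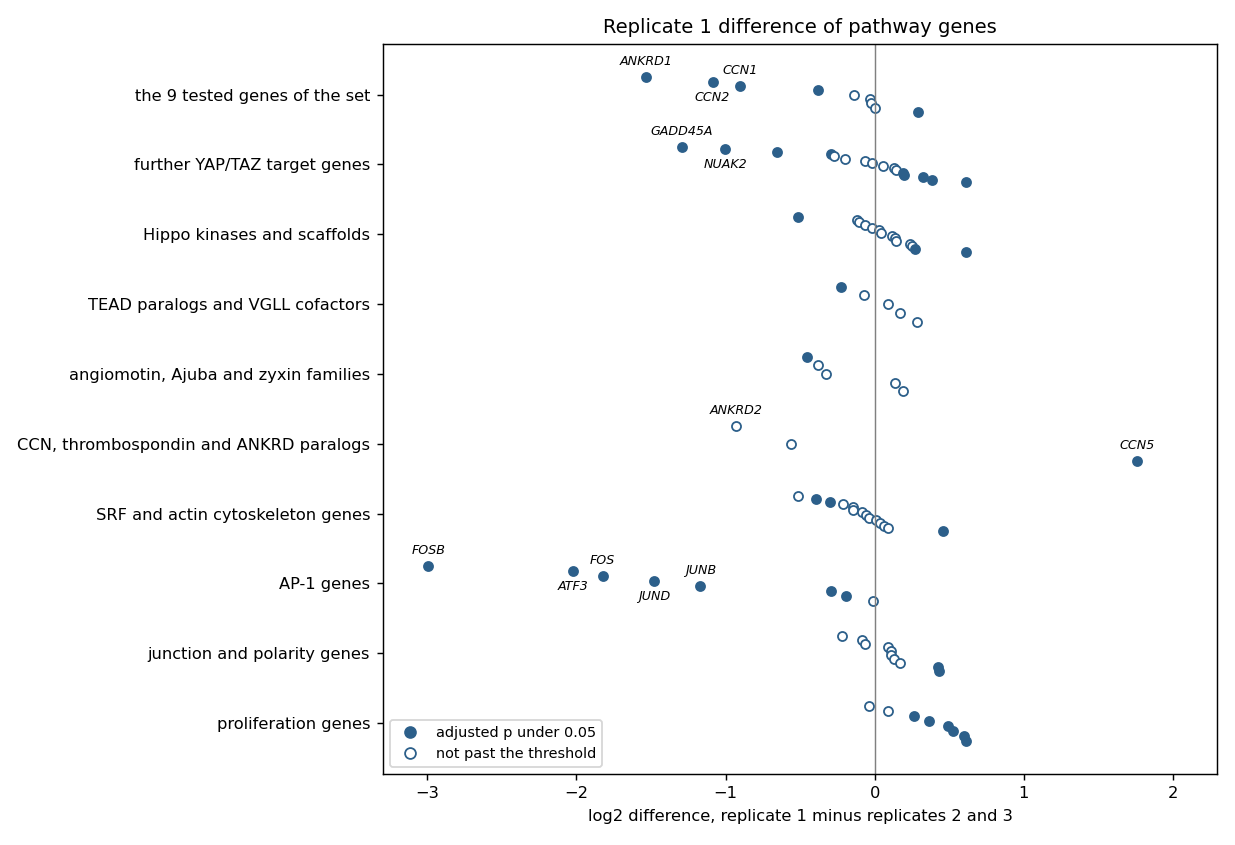
Log2 difference of replicate 1 from replicates 2 and 3 for each tested gene, 1 row per list (points spread vertically for legibility only), filled where the edgeR adjusted p was under 0.05. The AP-1 genes reach -2.99 (FOSB), the proliferation genes lie mostly at or above 0, and the further YAP/TAZ targets fall on both sides of 0.

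With TIM-1, no gene of these 4 lists passed without the block. JUN and FOSL1, the most abundant AP-1 genes, had log2 fold changes of 0.04 and -0.01 (edgeR adjusted p = 0.977 and 0.993), TOP2A and MKI67 of 0.09 and -0.02 (0.964 and 0.995), ACTG1 and ACTB of -0.14 and -0.18 (0.921 and 0.908), and CTNNA1 and FAT1 of 0.12 and -0.14 (0.911 and 0.914). With the block only FOSB (-0.62, edgeR adjusted p = 4.66e-08) and ATF3 (-0.43, 0.0432) passed, both lower, beside 1.79% of all genes. FOSB passed whichever pair was left out, and ATF3 did not without pair 2 (edgeR adjusted p = 0.414) or pair 3 (0.289).

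The genes whose profile over the 6 libraries was closest to that of the targets were sought among protein-coding genes of at least 10 CPM, by the root-mean-square difference of centred log2 CPM. For CCN1, over 8978 genes, these were ALDH1A1 (0.0489), a retinal dehydrogenase, CTU1 (0.0516), a tRNA thiolation enzyme, and MANF (0.0629), a secreted protein of the endoplasmic reticulum stress response. CCN2 stood 12th in that order (0.0964), and CCN1 stood 7th in the order of CCN2. For CCN2 the closest were the immediate early transcription factor EGR1 (0.0653), the Notch target HES1 (0.0659) and the endoplasmic reticulum chaperone cofactor SDF2L1 (0.0753). For ANKRD1 they were the immediate early gene IER2 (0.291), SDF2L1 (0.309) and OSGIN1 (0.315), with CCN2 9th and CCN1 36th, and the larger distances go with its low counts. YAP1 stood 4431st, TEAD1 4252nd and WWTR1 7788th of 8978 in the order of CCN1. These neighbours of the 3 targets had log2 differences of -1.30 to -0.82 in replicate 1, and the likeness is a description over 6 libraries, of which 2 stand apart.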

How the data were processed

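Total RNA of 6 UMUC3 libraries was sequenced. The submitters' processing notes name the build hg38 and the tools HISAT2 2.0.5 (an aligner), featureCounts 1.5.0-p3 (a read counter) and DESeq2 1.16.1. The deposited matrix holds raw counts per Ensembl gene, with no normalization by the authors found in the values. Annotation release, strand setting and read length: not given in the sources used here. Here, symbols were joined by Ensembl identifier (60463 of 60605 genes had one, and 58337 were in GENCODE 29). edgeR 4.0.16 in R 4.3.3 was used with TMM scaling, filterByExpr (minimum count 10), robust quasi-likelihood F tests (two-sided) and Benjamini-Hochberg adjustment over all 14479 genes, with a threshold of 0.05. CPM uses TMM-scaled library sizes. DESeq2 1.42.0, RLE scaling, no low-count filter, the replicate block and leaving out libraries were tried as alternatives.

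Same-numbered libraries deviated together from their group means (correlations of 0.53, 0.23 and 0.26 for numbers 1, 2 and 3). The main TIM-1 fit did not use this, and a fit with the numbers as pairs (the block) was run beside it. The fitted coefficient of variation between libraries was 14.2% without the block and 6.67% with it. TIM-1 values are unblocked unless the block is named. For genes of the other lists, blocked values are printed mainly where a call changed. TIM-1 replicate 3 correlated with empty-vector replicate 2 as well (0.26), so the pairing rests mainly on number 1.

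All 10 genes were named, and in each other list up to 3 genes past the threshold with the smallest p, or where none passed the 2 with the highest mean CPM. Other genes of a list were named after their values were seen. The genes and lists were chosen with earlier results of these data known.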

Additional observations from a re-analysis of the deposited data

How the results depend on the processing

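None of the 9 tested genes was called for TIM-1 against empty vector under any alternative run, with or without the replicate block (pairing by number), and AJUBA and LATS2 stayed lower and YAP1, TEAD1 and AMOTL2 higher throughout. Apart from the values given beside ANKRD1, LATS2 and WWTR1 above, no call of the 9 genes in replicate 1 was lost under RLE scaling, no filter, DESeq2 or leaving out a library. The precision for ANKRD1 and THBS1 is limited by counts of 35 or fewer per library. Where a value below changed sign or a count moved, the cause was not tested.

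The number of all genes called higher and lower with TIM-1 was 2 and 0 in the edgeR fit reported above, 60 and 12 with no low-count filter, 29 and 1 with DESeq2, 466 and 259 with the replicate block, 348 and 162 with a block of number 1 against the others, and 151 and 76 with the replicate block in DESeq2. Leaving out 1 library gave 1 to 8 higher and 0 to 1 lower. Without pair 1, 2 or 3 under the replicate block, 461, 153 and 334 were higher and 409, 57 and 133 lower. The counts given next for the empty-vector libraries alone are a record of that run and are not used as a test. The TIM-1 libraries alone were fitted as well, and only their log2 differences are given. For replicate 1, the empty-vector libraries alone, 1 library against 2, gave 576 genes higher and 598 lower, with 0 of the 9 genes higher and 2 lower, on a spread taken from those 2 libraries and pooled over genes. Leaving out 1 library gave 712 to 2020 genes higher and 676 to 1957 lower, with 0 to 1 of the 9 genes higher and 2 to 4 lower. For any difference among the numbers it gave 1816 to 3964 genes and 3 to 5 of the 9. Between replicates 2 and 3, 10 genes were higher and 8 lower with no filter, and 0 to 89 higher and 0 to 186 lower on leaving out a library. The difference of the replicate 1 effect between the vectors was called in 4 genes as higher with no filter, and in 0 to 252 as higher and 0 to 114 as lower on leaving out a library, where it could not be fitted without either replicate 1 library.

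The log2 values that changed sign had 95% intervals that include 0 in the fits reported above. For TIM-1, leaving out 1 library gave -0.049 to 0.16 for WWTR1, -0.20 to 0.29 for CCN1, -0.26 to 0.30 for CCN2, -0.37 to 0.68 for ANKRD1, -0.024 to 0.039 for MYOF, -0.055 to 0.16 for AXL, -0.036 to 0.18 for VGLL4, -0.43 to 0.015 for ZYX, -0.19 to 0.26 for THBS3, -0.24 to 0.011 for ACTG1, -0.042 to 0.14 for JUN, -0.079 to 0.069 for FOSL1, -0.092 to 0.30 for TOP2A and -0.28 to 0.18 for MKI67, and no low-count filter gave -0.0025 for MYOF. With the replicate block and without pair 1, signs changed for MYOF (-0.0068) and THBS3 (-0.050). With the replicate block and without pair 2, signs changed for ANKRD1 (-0.20) and AXL (-0.037). With the replicate block and without pair 3, signs changed for VGLL4 (-0.046), ZYX (0.030), JUN (-0.0027), FOSL1 (0.032) and MKI67 (0.022). In replicate 1, leaving out 1 library gave -0.076 to 0.080 for YAP1 (-0.013 with no filter, -0.074 in the TIM-1 libraries alone) and -0.099 to 0.053 for TEAD1 (0.053 in the empty-vector libraries alone). Between replicates 2 and 3 it gave -0.070 to 0.014 for YAP1, -0.030 to 0.20 for TEAD1 and -0.022 to 0.076 for AMOTL2. For the difference of the replicate 1 effect it gave -0.022 to 0.036 for CCN1 (-0.0052 with no filter), -0.047 to 0.0072 for WWTR1 and -0.054 to 0.12 for AJUBA.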
